A study of Mus musculus with 15 samples.

Results

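RNA-seq of CD8 T cells that had grown in IL-2 and been sorted as CD44+CD62L- was compared with RNA-seq of naive CD8 T cells that had never been cultured. The 2 populations were chosen by their sample labels and hold 6 of the 15 libraries of the series, 3 each. All cells came from OT-I mice, whose CD8 T cells carry a transgenic receptor for the ovalbumin peptide SIINFEKL. For the IL-2 cells, negatively selected CD8 T cells were put together with bone marrow dendritic cells that carried the peptide, kept in medium with IL-2, passaged after a week as on the first day, and sorted on day 14. The naive cells carry the same receptor and are given as day 0; their gate is CD44-CD62L+ in the design text and CD44loCD62L+ in the sample labels. Another kind of cell is used below only where named: cells kept for the same 14 days in a cocktail of IL-7, IL-21, the glucose analogue 2-deoxyglucose and the kinase inhibitor TWS119, and sorted through the same CD44+CD62L- gate. The other gates of the cocktail culture, CD44+CD62L+ and CD44loCD62L+, appear only in the map of leading genes and in the estimate of spread. The labels give no age, sex or number of mice, and the 3 libraries of a population are described as technical replicates, so a p-value here measures the spread between libraries and not between mice or cultures.

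A naive CD8 T cell circulates between blood and lymph nodes in a quiescent state, held there by transcription factors such as Foxo1, Klf2, Tcf7 and Lef1, which keep up the homing receptor CCR7 and the IL-7 receptor. Antigen, costimulation and IL-2 turn it into an effector cell: it divides, raises glycolysis and protein synthesis, loses the homing program, and gains granzymes, interferon gamma, and receptors for inflamed tissue. IL-2 acts through its receptor chains Il2ra, Il2rb and Il2rg and the kinases Jak1 and Jak3 on Stat5, whose targets include Cish, Socs2 and Il2ra itself. Receptors that restrain T cells, such as PD-1, CTLA-4, LAG-3 and TIM-3, also appear on effector cells.

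Values are FPKM, fragments per length of transcript and per sequenced fragments, as the authors deposited them. They were tested on the log2(FPKM + 1) scale, so every log2 fold change below (IL-2 cells minus naive cells) understates the change of a gene with a low value. A gene is said to have risen or fallen when its adjusted p was under 0.05 and its log2 fold change was at least 1 in size. FPKM values do not show the read depth. Their sum was 704023 to 744441 in IL-2 libraries and 733024 to 781949 in naive libraries, of which small RNA genes held 5.72% to 10.7% and 11.7% to 17.3%. Libraries of a population lay close together: the median coefficient of variation over genes above 100 FPKM was 0.998% in the IL-2 cells and 0.935% in the naive cells, and 4.48% and 4.69% over genes between 1 and 10 FPKM. A 0 may stand for an estimate that failed, since Eef1a1, a translation factor that every cell uses, is at 0 in all 15 libraries. Genes at 0 throughout a population are called listed at 0, and no fold change is printed for them. Where tested, they stay in the counts and list medians below. Among genes called risen or fallen, 26 were listed at 0 in all IL-2 libraries and 60 in all naive libraries.

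Cd44 RNA followed the gates. Cd44, the adhesion receptor used in the sort, stood at 23.2, 24.7 and 23.7 FPKM in IL-2 cells and 7.25, 7.47 and 7.01 FPKM in naive cells, a log2 fold change of 1.59. No IL-2 library overlapped a naive library, and since the gates used the protein these values check the labels and are not a finding. The receptor chain Cd3e was at 241 ± 0.674 FPKM (SD, n = 3) in the IL-2 cells and 301 ± 3.29 in the naive cells, and Cd8a at 218 ± 1.59 and 465 ± 3.39, so both populations carried the transcripts that define a CD8 T cell.

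Of 11242 genes tested, 3519 changed (31.3%): 1981 rose (17.6%) and 1538 fell (13.7%). These 3 shares are the background against which each list of genes below is read. The libraries of the 2 populations did not overlap for 91.7% of all genes, and 10321 genes (91.8%) passed the adjusted p at any fold, so it is the size of a change and not its p that separates genes here. The median log2 fold change of all genes was 0.016. Large increases outnumbered large decreases: 381 genes rose and 127 fell by a log2 fold change of 3 or more, and 70 rose and 27 fell by 5 or more. There were 235 genes that rose from a mean under 1 FPKM to at least 10 FPKM, and 71 that fell from at least 10 FPKM to under 1. Each of the 230 changed genes named by the naming rule had an adjusted p of at most 1.99e-07 by limma and no overlap between libraries, and the median standard error of their log2 fold changes was 0.029. With a pseudocount of 5 in place of 1, Mxi1, Socs5, Dnajb9, Oasl1, Slc30a1, Slc30a7, Rpl34, Gzmb, Xcr1, Cd274, Hist2h2be and Hist3h2a of the genes named below no longer passed the minimum fold. In such bulk libraries a shift in the share of cells that express a gene and a shift in RNA per cell cannot be told apart.

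**Figure D1:**
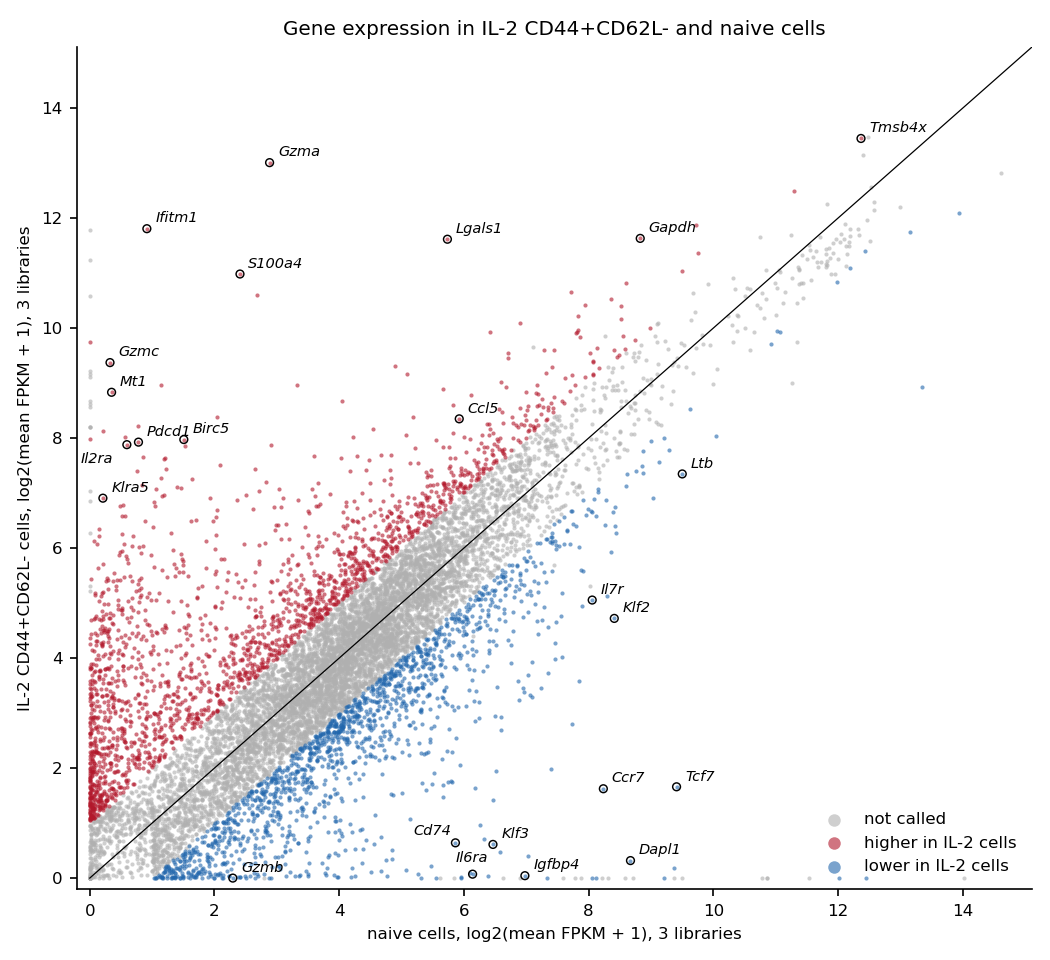
Each point is a gene tested, at its mean of 3 libraries in naive cells (x axis) and in IL-2 CD44+CD62L- cells (y axis), both as log2(FPKM + 1); red genes rose, blue genes fell and the diagonal marks equal values. Grey genes were not called. Of the labelled genes, Ifitm1 and Gzma sit farthest above the diagonal and Dapl1 and Tcf7 farthest below it.

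The transcripts that filled the cell differed. Small RNA genes, and genes whose symbols mark them as mitochondrial or ribosomal protein genes, were left out of this ranking. The 10 most abundant of the rest in the IL-2 cells were Tmsb4x, Gzma, Ppia, Gm9846, Actg1, Ifitm1, Tpt1, Actb, Gapdh and Lgals1. In the naive cells this group included Gm9846, Tpt1, Tmsb4x, Gm12191, B2m, Gm15772, Fau, Gnb2l1 and Ppia. Fau encodes a ribosomal protein made as a fusion with a relative of ubiquitin, and Gnb2l1 encodes RACK1, a protein of the ribosome. The symbols of these genes do not mark them as such, so both stayed in the ranking. Gzma alone, the granule protease granzyme A (chr13:113093825-113100981 in GRCm38), reached 8204, 8241 and 8288 FPKM in the IL-2 libraries, above Actb at 3251, 3241 and 3253, where the naive libraries held 5.68, 6.76 and 6.71. Ifitm1, an interferon-inducible membrane protein (chr7:140967221-140969825), reached 3624, 3565 and 3564 FPKM against 0.980, 0.581 and 1.10. Every IL-2 library was higher than every naive library for both, with log2 fold changes of 10.13 ± 0.042 (standard error, adjusted p = 7.21e-22) and 10.90 ± 0.079 (adjusted p = 1.22e-19). Gene for gene these are levels per transcript length, so Gzma and Ifitm1 can be set beside Gapdh, the glycolytic enzyme, at 3172 FPKM in the same cells.

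**Figure D2:**
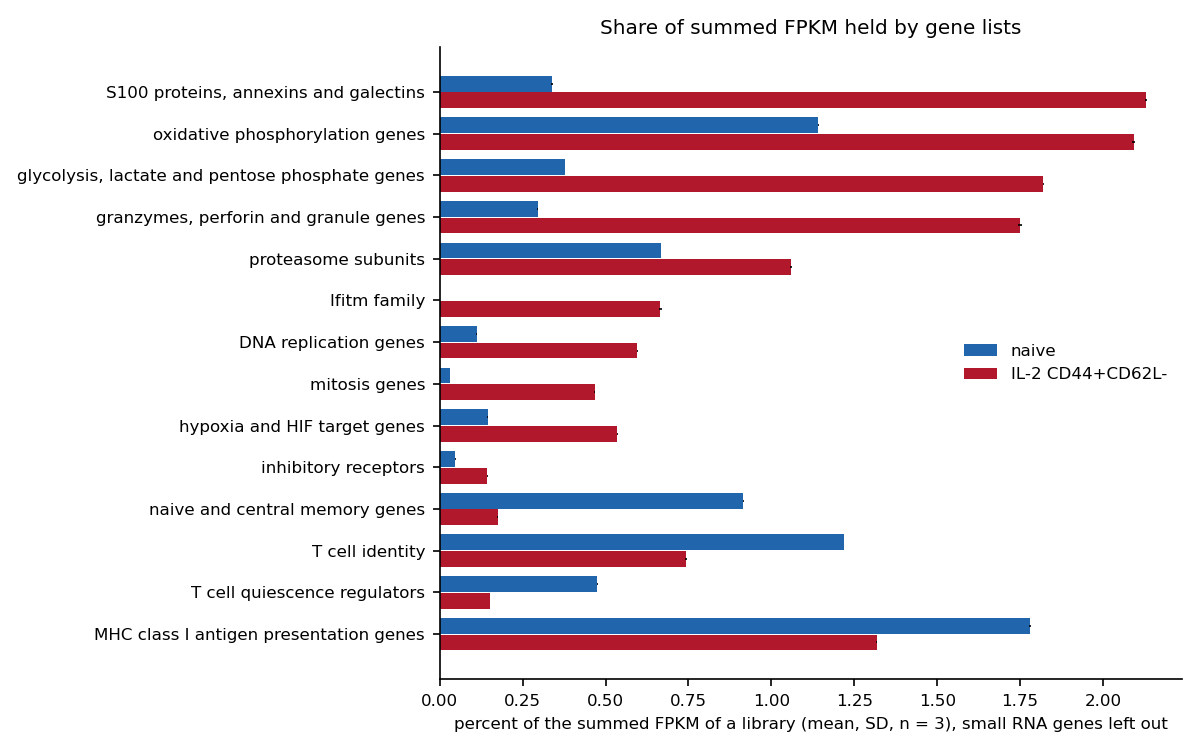
Bars give the share of a library's summed FPKM, with small RNA genes left out, held by each gene list in naive cells (blue) and IL-2 CD44+CD62L- cells (red), as the mean of 3 libraries with the SD as a thin line. Cytosolic ribosomal protein genes, at 29.9 ± 0.0434% in naive cells and 21.2 ± 0.0234% in IL-2 cells, are off this scale and left out. The S100, glycolysis and granule lists hold more, and the naive and quiescence lists less, in the IL-2 cells. The S100 list also holds genes of other families, named in the text.

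The naive program fell almost as a block. Of 33 naive and central memory genes tested, 29 fell and 3 rose, with a median log2 fold change of -3.69 beside 0.016 for all genes. Tcf7, the transcription factor TCF-1 of naive and memory T cells, stood at 682, 681 and 677 FPKM in the naive libraries and at 2.43, 2.13 and 1.92 in the IL-2 libraries. Dapl1, a gene known from naive T cells, stood at 407, 414 and 399 and 0.186, 0.368 and 0.186. Ccr7, the chemokine receptor that brings cells into lymph nodes, stood at 300.4, 301 and 301 and 2.13, 1.85 and 2.26. The 3 genes were high in every naive library and near the bottom of the scale in every IL-2 library, with log2 fold changes of -7.75, -8.36 and -6.61.

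Partners of Tcf7 and of the homing program fell by less. Lef1, its paralogue, went from 129 ± 0.896 to 11.9 ± 0.420 FPKM (log2 fold change -3.33). Klf2, which drives S1pr1, went from 339.7 ± 4.71 to 25.4 ± 0.492 (-3.69), and S1pr1, the receptor for exit from lymph nodes, from 176 ± 0.989 to 18.4 ± 0.281 (-3.19). Il7r, the IL-7 receptor chain, kept 32.3 ± 0.690 FPKM of 266 ± 3.96 (-3.003), and Foxo1 15.7 ± 0.292 of 58.7 ± 0.808 (-1.84). Tcf7 and Ccr7 thus ended at means of 2.16 and 2.08 FPKM, while Lef1, Klf2, S1pr1, Il7r and Foxo1 stayed above 10 FPKM. The 3 members of the list that rose were Ccr2, an inflammatory chemokine receptor, and Ly6c1 and Ly6c2, surface proteins of memory T cells. Ccr2 went from 0.625, 0.666 and 0.763 to 167, 169.9 and 169 FPKM, Ly6c1 from 18.6 ± 0.484 to 203 ± 5.02 and Ly6c2 from 84.1 ± 3.61 to 305 ± 6.33. Bcl2, the survival factor that IL-7 sustains, was the 1 member that neither rose nor fell, at 27.96 ± 0.662 and 25.9 ± 0.410.

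Other genes among the 15 with the lowest fold change have varied roles. Il6ra, the receptor chain for IL-6, stood at 70.48, 68.54 and 69.54 FPKM in the naive libraries and 0.0438, 0.0431 and 0.0654 in the IL-2 libraries. Its signalling partner Il6st went from 71.1 ± 0.659 to 2.12 ± 0.0177 (log2 fold change -4.53). Ccr9, the receptor for homing to the small intestine, stood at 61.1, 60.8 and 61.2 and 0, 0.0246 and 0.00830. Dtx1, a regulator of Notch signalling, stood at 97.02, 93.2 and 93.6 and 0.411, 0.395 and 0.361. Igfbp4, a secreted binding protein of insulin-like growth factors, had a log2 fold change of -6.94, Nsg2, a vesicle protein known from neurons, of -6.63, and Atp1b1, a sodium pump subunit, of -6.003. Klf3, a repressor related to Klf2, had -5.86, Als2cl -5.41 and Fam101b -5.29. The group closes with H2-Ob and Cd74, which belong to the MHC class II pathway and are taken up with the markers of other cells.

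Regulators of quiescence fell in number but less far. Of 32 tested, 17 fell and 2 rose, with a median of -1.12. Pik3ip1, an inhibitor of PI3 kinase, stood at 122, 121 and 123 FPKM in the naive libraries and 9.31, 10.1 and 10.4 in the IL-2 libraries. Btg1, an antiproliferative factor, stood at 236, 238 and 235 and 29.8, 29.9 and 30.4, and Txnip, a brake on glucose uptake, at 346, 351 and 348 and 75.3, 76.3 and 76.8. All naive libraries exceeded all IL-2 libraries for these genes, whose log2 fold changes were -3.49, -2.94 and -2.18. The 2 that rose were Cdkn2c, the cell cycle inhibitor p18, at 3.01 ± 0.255 and 29.3 ± 1.07 FPKM, and Mxi1, a Myc antagonist, at 4.25 ± 0.170 and 12.4 ± 0.191. Rbl1, a pocket protein that binds E2F factors, had a log2 fold change of 0.86, which did not pass the minimum fold.

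The T cell identity list moved downward: 11 of 30 members fell, none rose, and the median was -0.75. Both CD8 chains fell, Cd8b1 from 1059 ± 9.28 to 263 ± 1.22 FPKM (log2 fold change -2.01) and Cd8a by less (-1.09). Trat1, an adaptor that stabilises the receptor at the surface, fell most, from 37.3, 35.7 and 39.7 in the naive libraries to 0, 0.0706 and 0.0714. Cd7 and the kinase Txk followed at -3.55 and -3.33. Cd27, a costimulatory receptor of naive and memory cells, went from 194 ± 0.913 to 66.4 ± 0.810. Cd28, the main costimulatory receptor, had values of 30.96, 30.9 and 31.8 and 50.3, 50.2 and 51.2 FPKM, a log2 fold change of 0.68 in the other direction that stayed under the minimum fold, as did Thy1 (0.34) and Cd3e (-0.32).

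**Figure D3:**
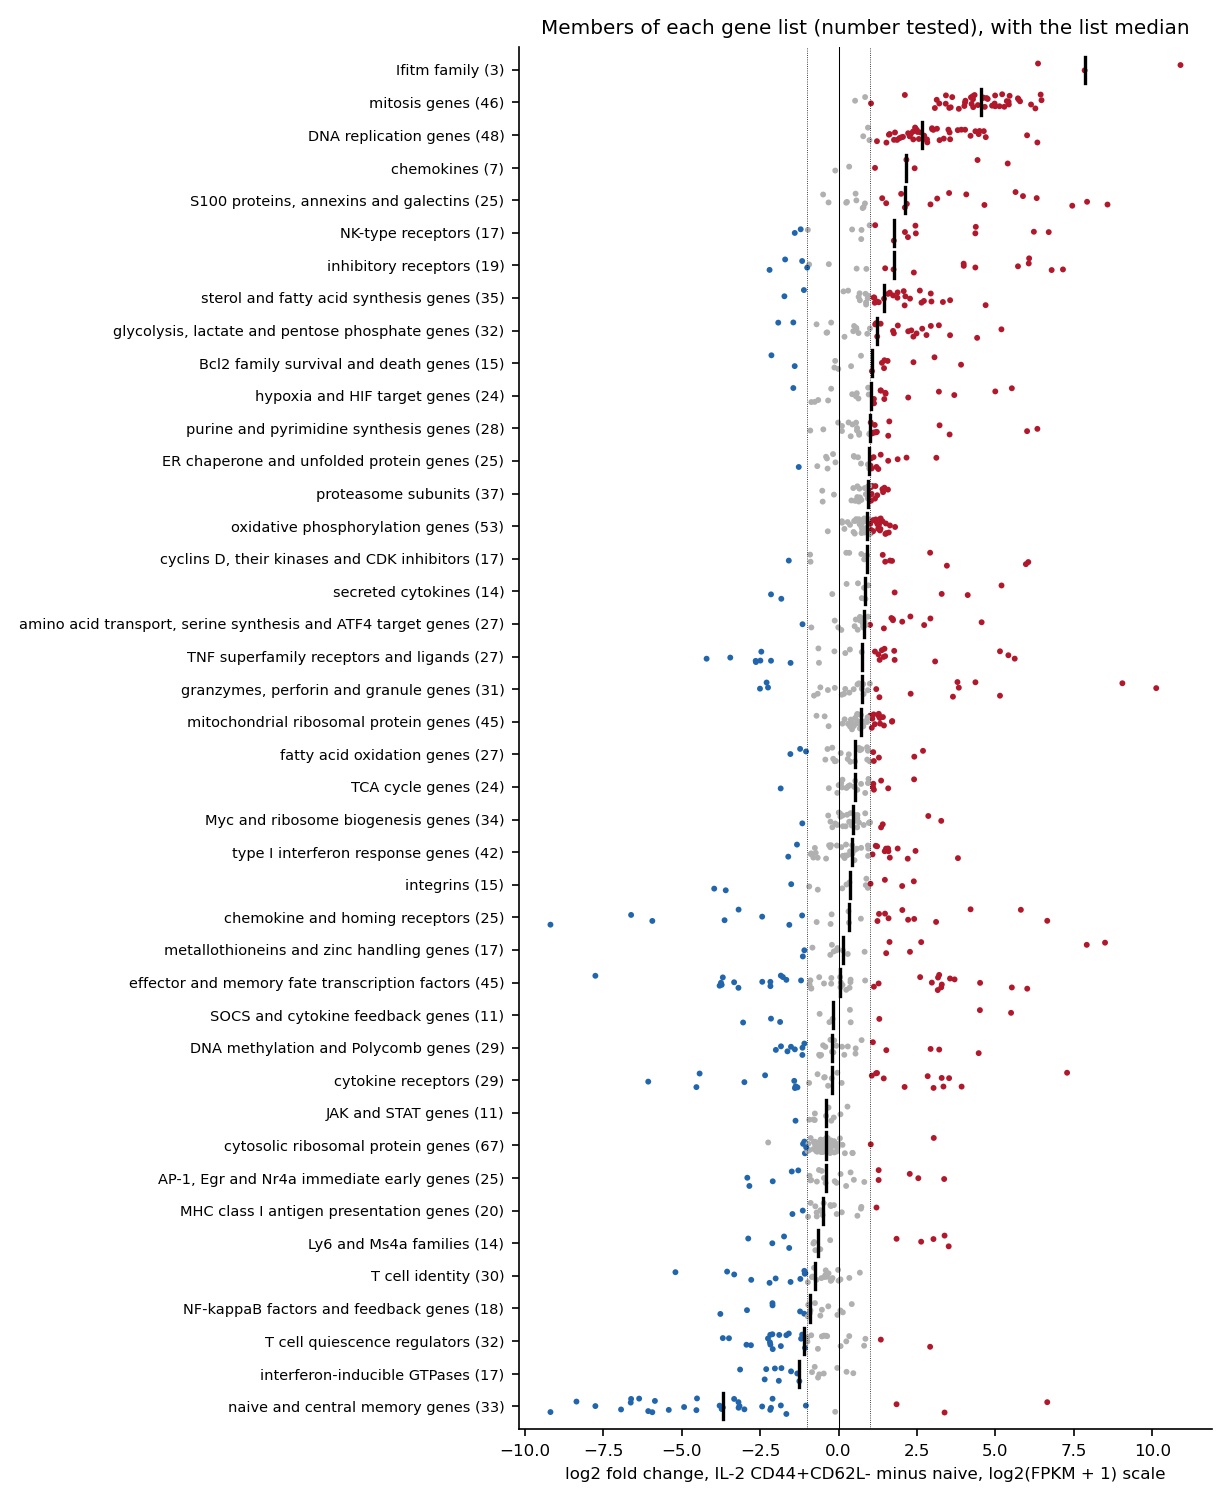
Each point is a gene tested, at its log2 fold change (x axis, IL-2 CD44+CD62L- minus naive, log2(FPKM + 1) scale), in rows of gene lists ordered by their median (black bar), with the number of members tested in parentheses. Red members rose, blue members fell and grey members were not called; dotted lines mark the minimum fold. Naive genes lie lowest at a median of -3.69, and mitosis genes and the Ifitm family highest at 4.53 and 7.85.

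Granzymes A and C had the highest fold changes of the granule genes that could be read. Of 31 granzyme, perforin and granule genes tested, 10 rose and 3 fell (median 0.74). Gzmc (chr14:56231441-56234656) stood at 659, 661 and 667 FPKM in IL-2 cells and 0.286, 0.188 and 0.284 FPKM in naive cells, a log2 fold change of 9.05. Gzmk, the granzyme of early memory cells, went from 0.373 ± 0.139 to 16.2 ± 0.984. Granzymes D, E and F, listed at 0 in all naive libraries, stood at 19.6, 12.9 and 13.3 FPKM in the IL-2 cells. These 3, Gzmg and Gzmc are neighbouring relatives, among which reads may be split. The granzyme genes A, C, D, E, F, G, K and M together summed to 8971 ± 45.1 FPKM in the IL-2 cells and 9.94 ± 0.654 in the naive cells (SD, n = 3).

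The rest of the granule moved far less than its proteases. Prf1, the pore-forming perforin, stood at 81.1, 82.7 and 83.1 FPKM in IL-2 cells and 49.3, 48.97 and 48.47 FPKM in naive cells. The groups did not overlap, but the log2 fold change of 0.74 ± 0.036 was below the minimum fold. Gzmm had 1.28 ± 0.128 and 2.93 ± 0.228 FPKM, and Ctsc, the cathepsin that activates granzymes, 41.46 ± 0.478 and 62.50 ± 0.433; neither was called. Fasl, the death ligand that cells display beside their granules, rose from 0.330, 0.296 and 0.319 to 44.7, 46.2 and 45.9 (log2 fold change 5.15). The cathepsins Ctss and Ctsl fell, from 144 ± 2.51 to 24.46 ± 0.724 and from 8.19 ± 0.122 to 0.934 ± 0.0865; Ctss is also on the list of dendritic cell and macrophage markers.

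Gzmb, granzyme B, which in most accounts is the leading granzyme of effector CD8 T cells, cannot be read in these data. It is listed at 0 in all 3 IL-2 libraries, and stood at 3.96, 3.92 and 3.84 FPKM in the naive libraries and at 1374 ± 9.97 (SD, n = 3) in the cocktail CD44+CD62L- cells. Its fall by the test therefore compares a listed 0 with a low value. Outside small RNA genes it is the 1 entry listed at 0 in the IL-2 libraries that reached 100 FPKM or more in another population, and the gene lies beside Gzmc in the granzyme cluster, at chr14:56258838-56262260. Whether that 0 is a failed estimate was not tested.

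Fate factors split evenly, 14 rising and 14 falling of 45 tested, with a median of 0.049. Zbtb32, a zinc finger repressor of activated lymphocytes, rose from 0.420, 0.457 and 0.548 in the naive libraries to 96.2, 92.4 and 94.6 FPKM. Bhlhe40, a helix-loop-helix factor of activated T cells, rose from 0.465, 0.352 and 0.556 to 65.8, 66.3 and 65.9. Tbx21, which encodes T-bet, the factor of type 1 effector cells, rose from 2.07, 2.502 and 2.38 to 37.6, 37.8 and 38.2. For all 3 the lowest IL-2 library was far above the highest naive library, with log2 fold changes of 6.02, 5.52 and 3.55. Prdm1, which encodes Blimp-1, a factor of terminal effector cells, went from 0.204 ± 0.0188 to 9.85 ± 0.103 (3.17), Batf3 from 0.136 ± 0.0669 to 24.9 ± 0.815 (4.51) and Id2, the inhibitor that favours effector cells, from 36.3 ± 0.733 to 225 ± 1.54 (2.60).

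Several of the factors that fell are known from naive and memory cells. Id3 went from 43.8 ± 0.421 to 2.25 ± 0.473 FPKM (log2 fold change -3.79), Bach2, a repressor that holds back effector genes, from 17.02 ± 0.112 to 0.975 ± 0.153 (-3.19), and Tox from 19.8, 21.2 and 20.8 to 0.7003, 0.588 and 0.543 in the single libraries (-3.75). Eomes, T-bet's relative in memory cells, had 10.3 ± 0.396 and 19.6 ± 0.261 FPKM (-0.87), under the minimum fold. Zeb2, a partner of T-bet in terminal effector cells, was low in both populations at 0.397, 0.414 and 0.430 in the IL-2 libraries and 0.117, 0.0881 and 0.120 in the naive libraries. Myc was at 82.8 ± 0.965 and 63.3 ± 1.95 (0.38) and was not called, while its paralogue Mycn went from 0.00960 ± 0.00831 to 8.77 ± 0.404 (3.27).

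**Figure D4:**
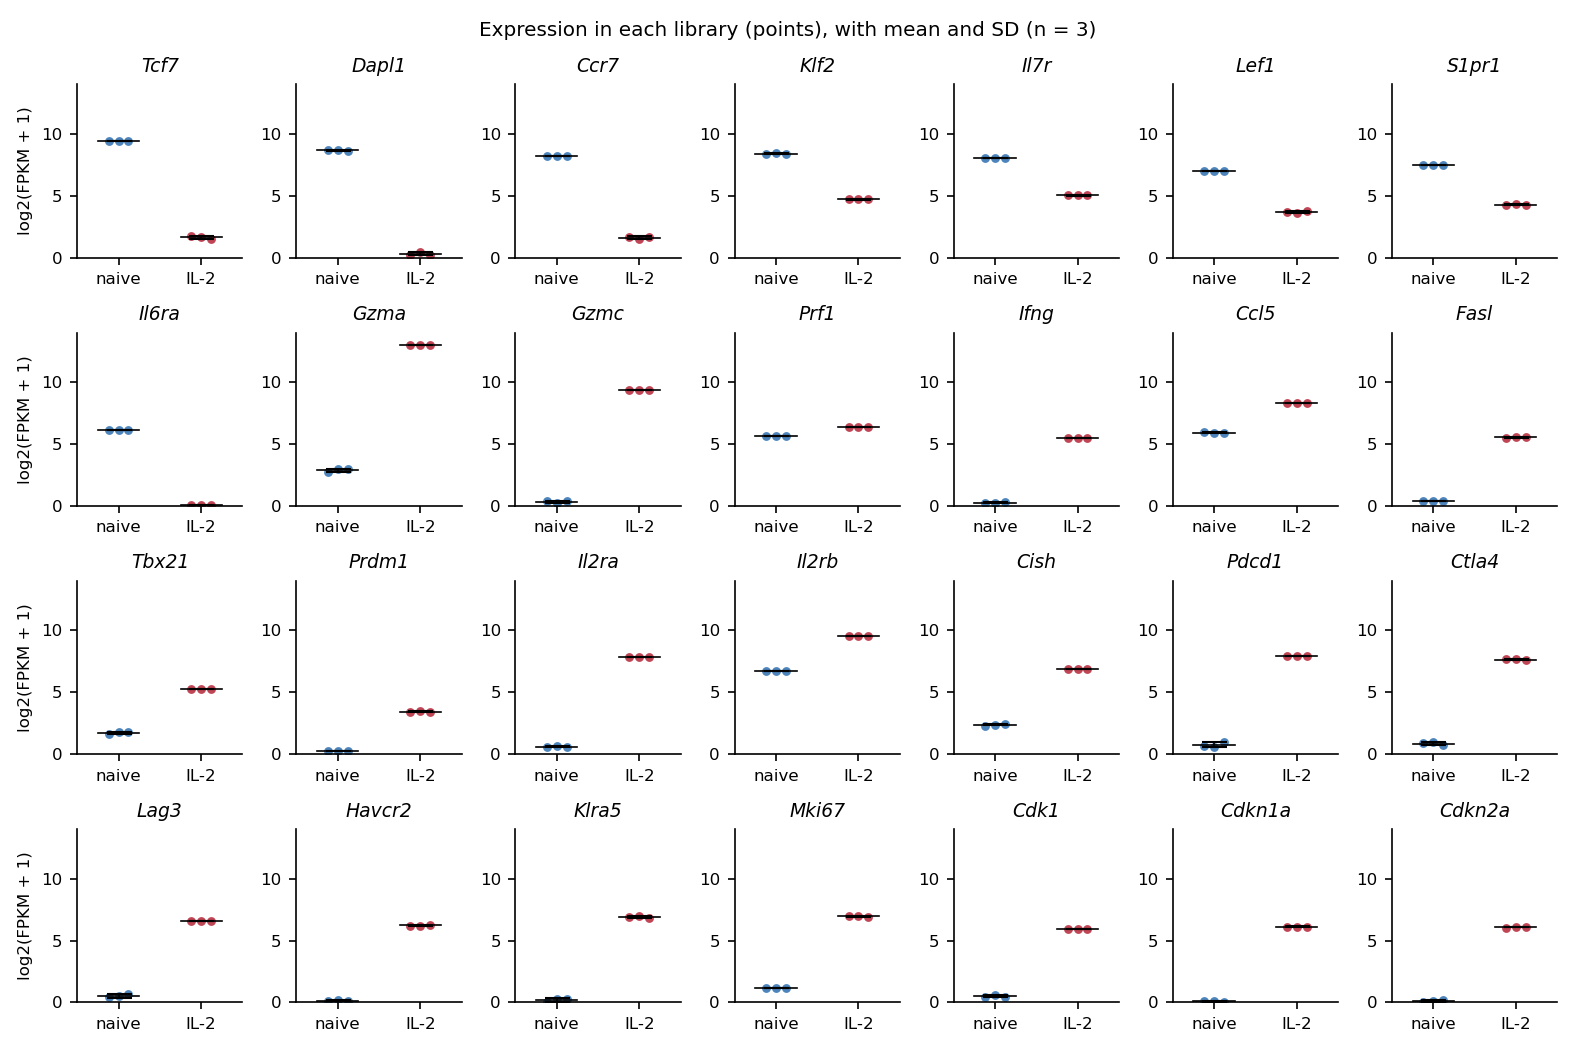
Each panel is a gene, with log2(FPKM + 1) in the 3 naive libraries (blue) and the 3 IL-2 CD44+CD62L- libraries (red) as points, and the mean and SD as black bars. The first 8 panels fell, from Tcf7 to Il6ra; the other panels rose, except Prf1, whose libraries did not overlap but whose log2 fold change of 0.74 was under the minimum fold.

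Most secreted cytokines tested were not called. Of 14 secreted cytokines tested, 4 rose, 2 fell and 8 were not called. Ifng, interferon gamma, stood at 42.96, 43.4 and 43.2 FPKM in IL-2 cells and 0.173, 0.170 and 0.275 FPKM in naive cells (log2 fold change 5.20). Il10, a cytokine that limits inflammation, stood at 15.9, 16.8 and 17.50 and 0, 0.0310 and 0.0313 (4.12). Csf1, a growth factor of macrophages, rose to 11.48 ± 0.169 FPKM (3.29) and Tnf from 5.82 ± 0.369 to 22.54 ± 0.314 (1.79). Ltb, lymphotoxin beta, and Il16 went the other way, from 724 ± 10.1 to 162 ± 2.67 and from 98.55 ± 0.820 to 27.1 ± 0.118. Flt3l, a growth factor of dendritic cells, was not called at -0.20.

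Of 7 chemokines tested, 5 rose and none fell. Ccl5, RANTES, stood at 323, 326 and 327 FPKM in IL-2 cells and 62.9, 58.03 and 58.4 FPKM in naive cells. Ccl4, an inflammatory chemokine, stood at 83.1, 82.4 and 83.2 and 0.688, 1.13 and 1.21, and Ccl3 at 25.1, 25.8 and 25.9 and 0.178, 0.175 and 0.354. Ccl5 was thus the most abundant of them in both populations, while the fold changes ran in the order Ccl4 (5.39), Ccl3 (4.43), Ccl5 (2.43) and Xcl1 (2.16), the last a chemokine for cross-presenting dendritic cells.

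Inhibitory receptors rose broadly: 11 of 19 did so and 4 fell, with a median of 1.75. Pdcd1, which encodes PD-1 (chr1:94038305-94052553), stood at 243, 242 and 242 FPKM in IL-2 cells and 0.624, 0.534 and 0.998 FPKM in naive cells. Ctla4, which competes with CD28 for its ligands, stood at 201, 200.5 and 199 and 0.845, 0.950 and 0.658. Lag3, which binds MHC class II, stood at 97.46, 95.6 and 93.47 and 0.328, 0.399 and 0.574, and Havcr2, which encodes TIM-3, at 73.3, 72.2 and 74.9 and 0.0826, 0.163 and 0.0956. All IL-2 libraries stood above all naive libraries for these receptors, whose log2 fold changes were 7.16, 6.79, 6.08 and 6.06. Of the 4 that fell, Cd5, which tunes receptor signals, went from 130.2 ± 2.24 to 27.54 ± 0.310, and Btla, which binds the TNF receptor relative HVEM, from 30.4 ± 0.858 to 8.65 ± 0.196. The fall of 4632428N05Rik, the symbol used in this table for the checkpoint VISTA, was smaller (-1.16), and Cd274, PD-L1, was the fourth (-1.0002), at the very edge of the minimum fold. Tox, which in chronic infection accompanies PD-1, was at 0.610 FPKM in the same IL-2 cells.

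Receptors first described on natural killer cells rose too, 10 of 17, with 2 falling (median 1.76). Klra5, of the Ly49 receptor family, stood at 119, 123 and 115 FPKM in IL-2 cells and 0.0367, 0.217 and 0.218 FPKM in naive cells (log2 fold change 6.70). Klrc1, the inhibitory receptor NKG2A, stood at 166, 178 and 176 and 1.66, 0.968 and 1.39 (6.23), and Klrk1, the activating receptor NKG2D, at 143, 147 and 148 and 5.75, 6.43 and 6.10 (4.38). Klrd1, CD94, the partner of NKG2A, was already at 220.4 ± 2.997 FPKM in naive cells and had 364 ± 1.44 in the IL-2 cells, which was not called. Hcst, which encodes DAP10, the adaptor of NKG2D, fell from 266 ± 0.750 to 100.5 ± 2.93. Ly49 and NKG2 genes are families of similar copies, and how reads were split among them is not given in the sources used here.

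The TNF superfamily moved in both directions, 13 up and 8 down of 27. Tnfrsf9, the costimulatory receptor 4-1BB, stood at 152, 153 and 152 FPKM in IL-2 cells and 2.17, 2.19 and 2.02 FPKM in naive cells. Tnfrsf8, CD30, stood at 43.1, 42.6 and 41.4 and 0, 0.0499 and 0, whereas its ligand Tnfsf8 fell from 27.8 ± 0.211 to 3.63 ± 0.386. Fasl and Fas moved apart likewise: Fas, the death receptor, fell from 30.7, 32.3 and 30.3 in the naive libraries to 2.20, 1.84 and 1.76. Tnfrsf25, the receptor DR3, fell from 18.1 ± 1.22 to 0.0327 ± 0.0283 (log2 fold change -4.21).

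Of the chains of the IL-2 receptor, Il2ra and Il2rb rose and Il2rg was not called. Il2ra, the high-affinity chain CD25 (chr2:11642807-11693193), stood at 234, 234 and 236 FPKM in IL-2 cells and 0.534, 0.541 and 0.456 FPKM in naive cells (log2 fold change 7.29 ± 0.022, adjusted p = 3.74e-23). Il2rb, the chain shared with IL-15, stood at 746, 755 and 747 and 102, 104 and 104 (2.84). Il2rg, the common gamma chain, had 299 ± 3.25 and 575 ± 6.27 FPKM and was not called (-0.94); it is given to complete the receptor and was chosen after its values were seen. Over the whole list of 29 cytokine receptors 12 rose and 9 fell, a count that holds the ligand Csf1 among the risen. Il12rb2 and Il18rap, chains for IL-12 and IL-18, which drive interferon gamma, rose from 1.97 ± 0.0473 to 44.1 ± 0.327 and from 3.01 ± 0.122 to 45.1 ± 0.701. Ifngr2, the signalling chain of the interferon gamma receptor, fell from 26.6, 25.1 and 26.2 in the naive libraries to 0.313, 0.218 and 0.220 FPKM (-4.43).

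Downstream of these receptors, the kinases and STAT factors leaned downward, mostly by less than the minimum fold (median -0.40). Of 11 tested, 1 fell, Jak1 from 263 ± 0.675 to 101 ± 0.511 FPKM (log2 fold change -1.37), and none rose. Only 2 of the 11 had a log2 fold change above 0. Jak3, Tyk2 and Stat2 had log2 fold changes of -0.15, 0.061 and 0.28. With quantile normalization Stat6 passed the minimum fold, at -1.03. The feedback genes moved far more, 3 up and 3 down of 11. Cish, a feedback inhibitor induced by STAT5, stood at 115, 116 and 117 FPKM in IL-2 cells and 3.97, 4.17 and 4.28 FPKM in naive cells. Socs2, of the same family, stood at 51.7, 51.8 and 50.8 and 0.172, 0.118 and 0.188, and the kinase Pim1 rose from 56.00 ± 1.12 to 139 ± 2.86. Socs3, which restrains IL-6 receptor signals, moved the other way, from 75.1, 74.9 and 74.46 to 8.26, 8.10 and 8.23, and Pim2 and Socs5 fell too, with log2 fold changes of -2.15 and -1.86.

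Among AP-1, Egr and Nr4a genes, which follow receptor triggering, 5 of 25 rose and 5 fell. These shares of 20% each were near the 17.6% and 13.7% of all genes. Dusp5, a phosphatase of ERK, rose from 6.80 ± 0.180 to 79.50 ± 1.14 FPKM and Egr1 from 16.01 ± 0.301 to 81.01 ± 1.05. Fos fell from 64.3 ± 0.846 to 7.70 ± 0.102, Zfp36l1, which degrades messenger RNA, from 107 ± 0.991 to 13.99 ± 0.0711, and Cd69, an early activation marker that retains cells in tissue, had 109 ± 1.51 and 70.6 ± 0.715 (log2 fold change -0.63) and was not called. In the NF-kappaB list 6 of 18 fell and none rose (median -0.91). Nfkbia, the inhibitor IkappaB alpha, stood at 148, 149 and 151 in the naive libraries and 9.54, 10.2 and 10.4 in the IL-2 libraries, and Tnfaip3, the deubiquitinase A20, at 42.99, 42.01 and 43.53 and 4.94, 5.02 and 4.43. Both are feedback targets of the pathway; Nfkb1, a subunit of the factor, had a log2 fold change of 0.42 and was not called.

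Among survival and death genes more rose than fell. In the Bcl2 family 8 of 15 rose and 2 fell. Bcl2l1, Bcl-xL, stood at 29.95, 28.7 and 29.96 FPKM in IL-2 cells and 4.76, 4.62 and 5.13 FPKM in naive cells, and Bcl2a1b and Bcl2a1d, near-identical copies of A1 whose reads may be split, rose by 3.06 and 3.91 in log2 fold change. Mcl1, a survival factor as well, fell from 221 ± 2.80 to 83.2 ± 1.18, and Bbc3, the killer PUMA, from 39.52 ± 0.668 to 8.19 ± 0.423. Bcl2l11, the killer BIM, stood at 21.4, 20.8 and 20.8 in the naive libraries and 20.9, 20.8 and 20.9 in the IL-2 libraries, and these overlapped.

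Homing receptors were exchanged, 11 up and 8 down of 25. Cxcr3, the receptor for chemokines that interferon gamma induces, stood at 111, 112 and 109.8 FPKM in IL-2 cells and 11.8, 11.98 and 12.2 FPKM in naive cells, and Cxcr6, a receptor of tissue-resident cells, at 246, 248 and 251 and 45.3, 46.1 and 46.49. Ltb4r1, which senses leukotriene B4, rose from 0.0771 ± 0.0597 to 18.9 ± 0.266. With Ccr2 these stood above every naive library, while Ccr7, Ccr9 and S1pr1 stood below. Integrins changed less: 4 of 15 rose and 3 fell. Itgav and Itgb1 rose by 2.03 and 1.48 in log2 fold change, and Itga4, which with Itgb1 or Itgb7 binds inflamed or gut vessels, fell from 49.6, 50.3 and 48.6 to 2.21, 2.18 and 2.31 FPKM. Itgae, CD103, which anchors cells in epithelium, fell from 38.6, 39.7 and 38.7 to 2.25, 2.27 and 2.41.

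Cell cycle genes rose almost without exception. In the DNA replication list 45 of 48 rose and none fell (median 2.67); in the mitosis list 44 of 46 rose and none fell (median 4.53). Rrm2, the ribonucleotide reductase subunit that supplies deoxynucleotides, stood at 233, 231 and 231 FPKM in IL-2 cells and 1.77, 1.94 and 1.92 FPKM in naive cells. Birc5, survivin, which acts at the centromere, stood at 255, 249 and 247 and 1.73, 1.604 and 2.20, and Mki67, the proliferation antigen, at 123, 124 and 122 and 1.27, 1.26 and 1.20. Cdk1, the mitotic kinase, stood at 60.47, 60.48 and 60.9 and 0.392, 0.540 and 0.363. Each IL-2 library was above each naive library, with log2 fold changes of 6.34, 6.47, 5.79 and 5.43. The members without a call were Rpa1, Cdt1 and Gins4 (0.79, 0.94 and 0.99) in replication, and Cdc25b and Pttg1 (0.53 and 0.85) in mitosis, genes already at 69.46, 26.2, 22.8, 33.4 and 38.99 FPKM in naive cells.

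Brakes on the cycle rose beside its engine. Cdkn1a, the inhibitor p21, stood at 68.03, 69.02 and 69.3 FPKM in IL-2 cells and 0.0814, 0.0601 and 0.0202 FPKM in naive cells. Cdkn2a, the locus of p16 and p19Arf, stood at 65.6, 67.4 and 67.4 and 0, 0.1002 and 0.143, and its neighbour Cdkn2b, listed at 0 in all naive libraries, at 10.4, 9.65 and 9.85. Cdkn1b, the inhibitor p27 of resting cells, fell from 75.7, 74.47 and 74.46 to 23.7, 24.3 and 24.8. All told 8 of 17 D cyclin, kinase and inhibitor genes rose and 1 fell. The D cyclins were not called: Ccnd2 had 129 ± 1.09 FPKM in naive and 68.8 ± 0.0237 in IL-2 cells, and Ccnd3 106 ± 0.744 and 176 ± 1.13. With quantile normalization Ccnd2 passed the minimum fold, at -1.18.

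Since these genes moved together, their promoters were searched for short motifs known from cell cycle control, in the 250 bases before the start in RefSeq (GRCm38.p6) on both strands. The motifs were CCAAT, the box of NF-Y; TTTGAA, the core of the CHR element of late cell cycle genes; and for E2F the words TTTGGCGC, TTTCGCGC and TTTCCCGC. Among 37 mitosis genes with a promoter, CCAAT was found in 27 (73%), beside 37.4% of the 8927 tested genes with a promoter and 34.5% of all 27025 promoters. CHR and CCAAT together stood in 9 of 37 (24.3%), beside 4.27% and 5.76%. An E2F word stood in 9 of 38 DNA replication genes (23.7%), beside 3.34% and 1.59%. These are matches of letters, counted without a test. The sequences below are the members with the highest fold change that hold them, with matches in capitals: CHR and CCAAT on either strand in Ube2c (chr2:164769679-164769928, plus strand) and Ccnb2 (chr9:70421555-70421804, minus strand), and an E2F word in Cdc6 (chr11:98907901-98908150, plus strand) and Orc1 (chr4:108579204-108579453, plus strand). Each runs 5′ to 3′ toward the start of the gene.
Ube2c: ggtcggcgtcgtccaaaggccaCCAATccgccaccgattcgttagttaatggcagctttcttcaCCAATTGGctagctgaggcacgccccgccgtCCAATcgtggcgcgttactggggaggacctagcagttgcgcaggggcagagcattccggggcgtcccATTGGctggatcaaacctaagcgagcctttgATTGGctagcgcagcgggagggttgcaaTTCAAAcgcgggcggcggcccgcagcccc
Ccnb2: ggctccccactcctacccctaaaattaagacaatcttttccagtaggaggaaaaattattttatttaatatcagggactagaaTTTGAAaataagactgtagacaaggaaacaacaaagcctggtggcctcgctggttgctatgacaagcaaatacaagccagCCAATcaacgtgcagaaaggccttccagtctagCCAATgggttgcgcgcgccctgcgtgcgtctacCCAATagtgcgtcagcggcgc
Cdc6: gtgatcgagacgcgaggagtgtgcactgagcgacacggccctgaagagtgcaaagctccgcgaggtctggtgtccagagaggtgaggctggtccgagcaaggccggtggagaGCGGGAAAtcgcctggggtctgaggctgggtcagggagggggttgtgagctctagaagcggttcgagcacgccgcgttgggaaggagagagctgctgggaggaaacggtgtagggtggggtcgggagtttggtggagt
Orc1: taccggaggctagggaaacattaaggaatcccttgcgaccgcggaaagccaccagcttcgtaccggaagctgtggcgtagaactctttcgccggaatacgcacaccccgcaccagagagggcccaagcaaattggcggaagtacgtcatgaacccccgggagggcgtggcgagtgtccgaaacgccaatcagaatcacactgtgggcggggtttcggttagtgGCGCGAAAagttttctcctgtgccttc
In Ube2c the CHR match lies 29 to 24 bases before the start and 6 CCAAT matches lie upstream of it, of which a neighbouring pair on opposite strands overlaps by 2 bases. In Ccnb2 3 CCAAT matches lie within 87 bases of the start, and the CHR match lies farther out, from base -167 to -162. The E2F match of Orc1 ends 20 bases before the start, and that of Cdc6 ends 131 bases before it. Ube2c, an enzyme that marks mitotic cyclins for destruction, stood at 200.2, 191 and 199 FPKM in IL-2 cells and 1.05, 1.55 and 1.23 FPKM in naive cells. Ccnb2, a mitotic cyclin, stood at 150.4, 154 and 156 and 1.20, 1.46 and 0.953, and Cdc6 and Orc1, which load the replicative helicase, at 19.51, 19.4 and 19.50 and 0.401, 0.347 and 0.326, and at 12.8, 13.1 and 12.8 and 0.247, 0.170 and 0.135.

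Replication-dependent histone entries rose as well. Of 35 entries with Hist names, 27 rose and 2 fell, with a median log2 fold change of 1.602. Hist1h4i, an H4 gene, stood at 38.4, 37.2 and 39.7 FPKM in IL-2 cells and 3.99, 4.23 and 5.10 in naive cells and the other entries had means under 10 FPKM. The 2 that fell were Hist2h2be and Hist3h2a, chosen by this count after their values were seen. Histone genes are near-identical copies and their reads may be split between entries.

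Growth machinery moved by kind. The cytosolic ribosomal protein genes, which held a larger share of the summed FPKM than any other list, had a median of -0.40: 2 of 67 rose, 4 fell and 61 were not called. Their share of the summed FPKM went from 29.9 ± 0.0434% in naive cells to 21.2 ± 0.0234% in IL-2 cells (SD, n = 3). Rps16 and Rps21 fell by the test, from 4036 ± 19.6 to 1841 ± 7.002 FPKM and from 4672 ± 52.3 to 2195 ± 19.8. With quantile normalization neither passed the minimum fold, at -0.72 and -0.67. Rpl26 and Rpl34 rose, from 20.8, 23.4 and 29.4 to 222, 185 and 215 and from 14.6, 16.6 and 15.2 to 31.04, 29.6 and 37.49 in the single libraries, but these genes have many processed copies in the genome between which reads can be split. The call of Rpl34 was lost without IL-2 replicate 3 (log2 fold change 0.93) and without naive replicate 1 (0.99).

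In the Myc and ribosome biogenesis list few genes passed the minimum fold, 4 up and 1 down of 34, but 28 had a log2 fold change above 0, the median was 0.47, and the sum was 2292 to 2305 FPKM in the naive libraries and 3897 to 3907 in the IL-2 libraries. Odc1, which makes polyamines, rose from 27.49 ± 0.580 to 206 ± 1.82 FPKM (log2 fold change 2.86), Nhp2, a protein of small nucleolar particles, by 1.41, while Max, the partner of Myc, fell (-1.16) and Utp20 and Heatr1 had -0.33 and -0.26. Mitochondrial ribosomal proteins leaned upward, 14 of 45 rising and none falling (median 0.71), led by Mrpl20 (1.71) and Mrpl13 (1.70). Proteasome subunits did so too, 12 of 37 and none falling (median 0.94). Psmd13, a subunit of the cap, rose from 54.8 ± 0.302 to 165 ± 1.65, while the immune forms Psmb10 and Psme1 had -0.52 and -0.51 and were not called, except Psme1 with quantile normalization (-1.01). Of 25 genes of the endoplasmic reticulum 12 rose and 1 fell. Xbp1, the factor that enlarges this compartment, rose from 19.8 ± 1.06 to 92.51 ± 1.56 and Sdf2l1, a chaperone, from 10.48 ± 0.647 to 98.54 ± 1.28. Ddit3, the stress factor CHOP, was not called (-0.68), and Dnajb9 fell (-1.27).

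Glycolysis rose from uptake to lactate export. Of 32 genes tested 18 rose and 2 fell (median 1.21), and their share of the summed FPKM went from 0.378 ± 0.000616% to 1.82 ± 0.00247%. Slc16a3, the lactate exporter MCT4, stood at 64.8, 64.1 and 65.3 FPKM in IL-2 cells and 0.913, 0.777 and 0.707 FPKM in naive cells. Tpi1, triosephosphate isomerase, stood at 637, 635 and 639 and 28.4, 29.01 and 29.1, Hk2, the inducible hexokinase, at 15.8, 16.1 and 15.8 and 0.399, 0.412 and 0.506, and Ldha, which makes lactate, at 1789.8, 1802 and 1816 and 383, 387 and 387. The libraries did not overlap for any of them, with log2 fold changes of 5.19, 4.42, 3.55 and 2.22. Slc2a1, the glucose transporter GLUT1, rose by less, from 15.9 ± 0.252 to 41.9 ± 0.490 (1.34). The 2 that fell were Ldhb, the lactate dehydrogenase of resting cells, from 9.35 ± 0.294 to 1.73 ± 0.0317, and Pdk1, which keeps pyruvate out of mitochondria, from 59.95 ± 0.783 to 21.4 ± 0.288. Among hypoxia and HIF target genes, a list that shares members with glycolysis, 12 of 24 rose and 1 fell; Bnip3, which removes mitochondria, went from 2.46, 2.60 and 3.37 to 121, 119.6 and 119.5.

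Oxidative phosphorylation genes rose by small steps. Of 53 oxidative phosphorylation genes 22 rose and none fell, and 52 had a log2 fold change above 0 (median 0.92). Cox5a, a subunit of cytochrome c oxidase, led with 143 ± 3.88 and 499.7 ± 1.34 FPKM (1.80), followed by the complex I subunits Ndufb8 and Ndufb7 (1.64 and 1.6001), while Ndufa6 had -0.34. In the citric acid cycle 6 of 24 rose and 1 fell: Pcx, pyruvate carboxylase, which feeds the cycle, rose from 0.838 ± 0.0390 to 8.76 ± 0.292, and Idh2 fell from 39.1 ± 0.617 to 10.2 ± 0.215. In fatty acid oxidation 5 of 27 rose and 3 fell, shares of 18.5% and 11.1% near those of all genes, with Acadl (2.69) and Etfb (2.41) at the top and Lipa (-1.54), the lysosomal lipase, at the bottom.

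Biosynthesis rose further. Of 35 sterol and fatty acid synthesis genes 23 rose and 2 fell (median 1.45). Sqle, squalene epoxidase of the cholesterol pathway, stood at 46.7, 47.8 and 46.7 FPKM in IL-2 cells and 3.10, 3.05 and 3.11 FPKM in naive cells, and Fads2, a fatty acid desaturase, at 24.6, 24.98 and 25.4 and 0, 0 and 0.0264. The 2 that fell, Acss2 and Elovl5, went from 27.3 ± 0.439 to 7.56 ± 0.291 and from 95.4 ± 0.984 to 43.8 ± 0.0739. Among amino acid and ATF4 target genes 10 of 27 rose and 1 fell, with Asns, asparagine synthetase, at 23.9, 25.8 and 26.3 and 0.121, 0.119 and 0.0999. Psat1 and Shmt1, enzymes of serine and folate metabolism, rose by 2.73 and 2.93 in log2 fold change, and Slc7a5, the transporter of large neutral amino acids, by 2.29. Of 28 nucleotide synthesis genes 13 rose and none fell; Tk1, thymidine kinase, which the replication list also holds, went from 1.04, 1.06 and 1.18 to 134, 133 and 135.

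Interferon genes did not move as a block. Of 6 Ifitm genes 3 passed the filter on low values, and these rose: Ifitm2 stood at 504, 487 and 510.0 FPKM in IL-2 cells and 0.990, 1.62 and 0.981 FPKM in naive cells, and Ifitm3 at 327, 336 and 334 and 3.61, 2.40 and 3.27. With Ifitm1 they summed to 4417 ± 34.4 FPKM against 5.18 ± 0.514. Of 42 other genes of the type I interferon response 12 rose and 2 fell, with a median of 0.42. Mx1, an antiviral GTPase, rose from 7.46, 7.49 and 7.86 to 118, 120.4 and 120.1 and Isg20, an exonuclease, from 19.1, 18.2 and 18.1 to 106, 105 and 106, while Oasl1 and Ifi203 fell, with log2 fold changes of -1.604 and -1.33. The interferon-inducible GTPases, which interferon gamma induces, fell instead: 9 of 17 fell and none rose (median -1.25). Gbp2, a guanylate binding protein, stood at 83.2, 82.52 and 84.52 in the naive libraries and 16.2, 15.7 and 16.3 in the IL-2 libraries, and Tgtp1 at 41.52, 42.6 and 41.98 and 3.61, 3.79 and 4.26; Tgtp1 and Tgtp2 are near-identical copies. In the same libraries Ifng rose and its receptor chain Ifngr2 fell, as given above; whether these bear on the GTPases was not tested. In MHC class I presentation 1 of 20 rose and 2 fell, the latter H2-Q4 (-1.47) and H2-K1, the molecule that presents SIINFEKL, from 2160.4 ± 8.78 to 979 ± 5.10.

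The element through which type I interferon acts was searched in the same promoters as TTTCNNTTT on both strands. It stood in 17 of 29 type I interferon genes with a promoter (58.6%), beside 7.23% of the tested genes with a promoter and 9.53% of all promoters. Isg20 (chr7:78913174-78913423, plus strand) is shown as the list member with the highest fold change that holds it, with the match, 62 to 54 bases before the start, in capitals.
Isg20: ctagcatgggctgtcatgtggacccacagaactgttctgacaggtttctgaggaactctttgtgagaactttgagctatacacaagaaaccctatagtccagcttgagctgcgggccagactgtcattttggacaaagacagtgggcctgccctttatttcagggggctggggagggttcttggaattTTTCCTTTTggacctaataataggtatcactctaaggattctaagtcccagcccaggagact

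The list of S100 proteins, annexins and galectins also holds Vim, Lmna, Crip1, Capg, Ahnak, Emp1 and Emp3. Of its 25 members 16 rose and none fell (median 2.11). S100a4, a calcium-binding protein of migrating cells, stood at 2001, 2022 and 2049.6 FPKM in IL-2 cells and 4.51, 4.20 and 4.23 FPKM in naive cells, and S100a6 at 1563, 1563 and 1544 and 4.87, 5.99 and 5.44. Lgals1, galectin-1, stood at 3155, 3115 and 3146 and 52.53, 52.6 and 51.7, and Lgals3, galectin-3, at 300.1, 295 and 296 and 0.473, 0.873 and 0.792. Each group stood apart from the other, and the list went from 0.338 ± 0.00300% to 2.13 ± 0.00245% of the summed FPKM. Lgals8, Lgals4 and Lgals9 had log2 fold changes of -0.49, -0.32 and 0.24 and were not called, so the galectins did not move alike. The metallothioneins, zinc-binding proteins, stood out among 17 zinc handling genes: Mt1 stood at 464, 454 and 447 and 0.517, 0.102 and 0.205 and Mt2 at 281, 277 and 279.9 and 0.198, 0.195 and 0.0984, while the median of the list was 0.14, with 6 up and 2 down. The zinc exporters Slc30a1 and Slc30a7 were those that fell (log2 fold changes of -1.09 and -1.14). AA467197, a relative of the mitochondrial protein Ndufa4, is also among the 15 leading genes, at 263, 256 and 262 and 0.480, 0.472 and 0.476. In the Ly6 and Ms4a families 5 of 14 rose and 4 fell, with Ly6a, Sca-1, at 971 ± 8.08 and 84.3 ± 1.45 and Ms4a4c at 4.53 ± 0.260 and 22.9 ± 0.789.

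Of 29 DNA methylation and Polycomb genes 5 rose, 17.2% beside 17.6% of all genes, and 8 fell, 27.6% beside 13.7%. Uhrf1, which carries DNA methylation through replication, stood at 125, 123 and 125 FPKM in IL-2 cells and 4.55, 4.62 and 4.83 FPKM in naive cells, and Ezh2, the Polycomb methyltransferase, at 81.4, 83.2 and 82.2 and 9.49, 9.88 and 10.3. Kdm6b, which removes the Polycomb mark, fell from 19.7, 19.8 and 19.6 to 4.08, 4.14 and 4.31, Cbx7, which reads it, from 59.9 ± 0.953 to 16.1 ± 0.314, and Tet3, which oxidises methylcytosine, from 25.7 ± 0.412 to 8.32 ± 0.286.

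Changed genes lay next to each other in several gene clusters. Along the chromosomes (GENCODE gene spans, GRCm38), 35 runs of 4 or more neighbouring tested genes changed in 1 direction, 28 upward and 7 downward, counted as a description. The longest was 12 genes of the histone cluster at chr13:21716422-22043676. A run of 9 at chr7:140863666-141090510 spanned the Ifitm genes together with Psmd13 and Sirt3, and a run of 7 at chr6:129610323-129917650 held Klrk1, Klrc1 and Klra5. Runs of 6 were found over the granzymes at chr14:56082166-56234656, the S100 genes at chr3:90511034-90624181 and from Cdkn1a to Pim1 at chr17:29090976-29496112. A downward run of 4 at chr17:34238903-34316674 held H2-Ob, H2-Ab1, H2-Aa and H2-Eb1 of MHC class II. Members of a run were named for their position.

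Markers of B cells, of dendritic cells and macrophages, and of erythroid cells, platelets and neutrophils summed higher in naive libraries, and those of NK cells, CD4 T cells and stroma higher in IL-2 libraries. The 14 B cell markers summed to 50.46 to 51.54 FPKM in the naive libraries and 6.77 to 7.67 in the IL-2 libraries, and 10 of 11 tested fell; Cd79a went from 9.35 ± 0.408 to 0.0406 ± 0.0177, and 3 of the 14 were listed at 0 in all IL-2 libraries. The 25 dendritic cell and macrophage markers summed to 335 to 338 and 206 to 209, most of it Cst3 and Ctss, and 10 of 18 tested fell and 3 rose. Among them, Cd74, the invariant chain of MHC class II, stood at 57.97, 56.9 and 56.9 and 0.775, 0.465 and 0.437, and H2-Aa at 21.8 ± 1.81 and 0.0789 ± 0.0396; the risen ones were Fcer1g, Xcr1 and Batf3. The fall of Cd74, H2-Ob and the class II genes thus went with B cell and myeloid markers, whose part in it was not tested. The 15 erythroid, platelet and neutrophil markers summed to 29.4 to 34.2 and 0.525 to 0.684, with S100a8 and S100a9 at 12.7 and 14.2 FPKM in naive cells and 0.0611 and 0.0398 in IL-2 cells. The 8 NK cell markers summed to 4.94 to 5.86 and 25.1 to 25.99. Cd244 made up 20.9 ± 0.145 of this in the IL-2 cells, and 3 of the markers were listed at 0 there. The 6 CD4 T cell markers summed to 8.12 to 9.99 and 16.50 to 17.4. Most of their IL-2 sum was Zbtb7b, the CD4 lineage factor ThPOK, at 0.229, 0.235 and 0.237 and 15.2, 14.4 and 15.50. Of the 3 CD4 T cell markers tested, 2 rose and 1 fell, the latter with a log2 fold change of -2.63. The 10 markers of stroma and endothelium summed to 1.05 to 1.11 and 2.20 to 2.91, and the 3 of gamma delta and innate-like T cells found in the table stayed under 1 FPKM in sum.

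A last comparison asks which of these levels were also found in cells cultured as long and sorted through the same gate but grown in the cocktail. IL-2 and cocktail CD44+CD62L- cells differed directly in 882 of 11242 genes (7.85%). Both comparisons share the IL-2 libraries, so values are given side by side. Klra5 stood at 16.7 FPKM in the cocktail cells, between 0.157 in naive and 119 in IL-2 cells, and the direct log2 difference (IL-2 minus cocktail) was 2.77 (adjusted p = 3.19e-14). Il10 was at 0.0292 FPKM in the cocktail cells, near its naive level of 0.0208, with a direct difference of 4.11 (adjusted p = 1.51e-17), and Mycn was at 0.162 (3.07, adjusted p = 1.13e-15). Tnfrsf8, at 1.83 FPKM, and Cd244, at 1.66, were low in the cocktail cells likewise, with direct differences of 3.94 and 3.04. For Cish (119 FPKM, direct difference -0.044), Lag3 (89.1, 0.098), Bhlhe40 (65.3, 0.016) and Mki67 (111, 0.14) the cocktail cells were close to the IL-2 cells. On the falling side, Il6ra, Ccr9 and Dtx1 stood at 0.0411, 0.0157 and 0.239 FPKM in the cocktail cells, as low as in the IL-2 cells, while Tcf7 and Dapl1 stood at 237 and 48.47, with direct differences of -6.24 and -5.31 (adjusted p = 4.63e-19 and 7.48e-18). Bcl2, which was not called between naive and IL-2 cells, was at 92.9 FPKM in the cocktail cells (-1.80, adjusted p = 1.19e-17).

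**Figure D5:**
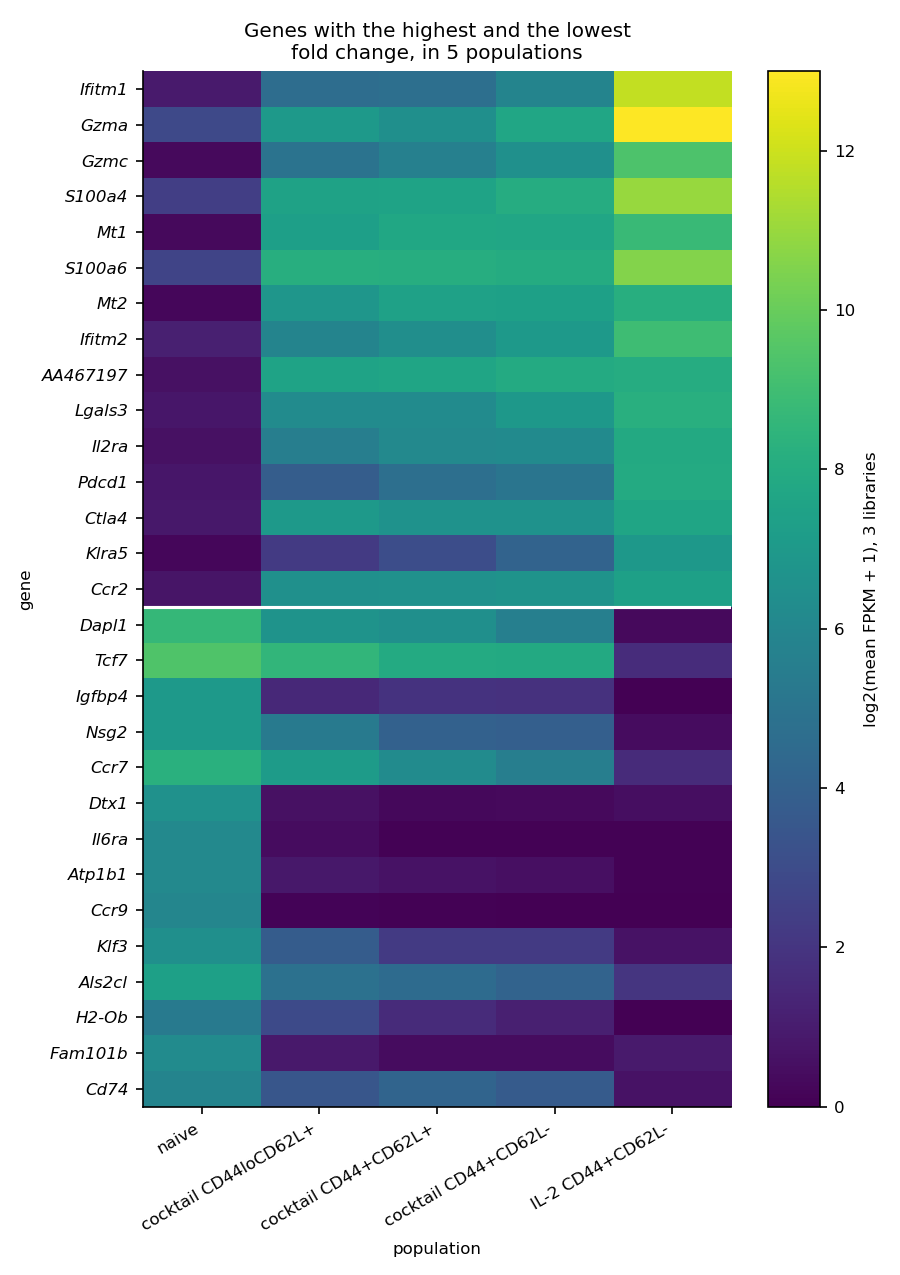
Colours give log2(mean FPKM + 1) of 3 libraries for the 15 genes with the highest fold change (above the white line) and genes among the 15 with the lowest between IL-2 CD44+CD62L- and naive cells, in all 5 populations. Gzma, Ifitm1 and Klra5 are brightest in the IL-2 column at 8244, 3585 and 119 FPKM; Dtx1, Il6ra and Ccr9 are dark in every cultured column, and Tcf7 is dark in the IL-2 column alone.

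Entries listed at 0 throughout 1 of the 2 populations but at 10 FPKM or more in the other numbered 52, of which 45 were small RNA genes. The other 7 were A130040M12Rik, Gja5, Gzmd, Gzme, Gzmf, Igfbp7 and Mtap6, named because of this count, and all were listed at 0 in naive cells. Gja5, a gap junction protein, stood at 18.2, 17.8 and 18.4 FPKM in IL-2 cells, and Igfbp7, a secreted binding protein, at 9.92, 10.2 and 11.6. A130040M12Rik, an entry without a known protein, stood at 256, 251 and 254. For these no fold change is given.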

How the data were processed

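RNA-seq of 15 libraries was analysed, 3 for each of 5 sorted populations, grouped by their labels. The deposited table holds FPKM values for 23284 entries under gene symbols, which the authors normalized; the submitters' processing notes name TopHat2 2.0.9, Cuffdiff 2.1.1 and the genome build mm10. For the annotation, settings and use of strand, nothing is given in the sources used here. FPKM carries no depth. Of 31656 ratios of low values between libraries, 51.3% lay within 0.05 of a whole number, after each pair of libraries was scaled for the best match. Ratios of small whole counts need not be whole, so this share cannot show whether the values stand for whole reads. Read counts were not recovered here, and counting error is unknown.

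Genes were tested (11242) if any population had a mean of 1 FPKM or more. On log2(FPKM + 1), limma 3.58.1 (R 4.3.3) fitted population alone over the 15 libraries, by lmFit and eBayes with a trend. A change was called at a Benjamini-Hochberg adjusted p under 0.05 over all genes, with a minimum size of 1 for the log2 fold change. With 3 libraries a side, the smallest two-sided p of an exact permutation test is 0.1.

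The comparison, the gene lists and the rules were chosen with earlier results of these data known, so no count over a list is independent support. The lists hold 1221 different genes, of which 1202 are in the table and 1095 were tested. Named are sort markers, a set of key genes, the 15 highest and 15 lowest fold changes (10 FPKM or more where higher, no overlap, without predicted, small RNA, receptor segment and listed-at-0 genes), the 3 highest and 3 lowest of each list (at least 5 FPKM) and the 10 most abundant genes of each population, 309 in all, some of them not reported here; other names are explained where they appear. Gene spans are from GENCODE for GRCm38, the assembly of mm10, and promoters from RefSeq for GRCm38.p6. Alternatives were other pseudocounts, filters, scalings, fold minimums and libraries in the fit, a fit without the variance trend, a replicate block, leaving out genes listed at 0 or small RNA genes, and leaving out each library in turn.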

Additional observations from a re-analysis of the deposited data

How the results depend on the processing

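The counts of 1981 higher and 1538 lower genes moved by more than 1.5 times with a pseudocount of 5 (1252 and 786), a minimum fold of 1.5 (3176 and 2844) and a minimum fold of 4 (735 and 363). Leaving out each library in turn gave 1968 to 1988 higher and 1536 to 1549 lower genes. With the other alternatives the counts stayed within 1.5 times, the lowest share of higher genes among those called being 48.4% with quantile normalization, beside 56.3%. None of the 230 named genes that were called changed direction under any alternative. The 79 that were not called were checked for direction only where an alternative gave them a call. Of all 309 named genes, 296 kept their side of the threshold with a pseudocount of 5, 291 with quantile normalization and 303 with a pseudocount of 0.1. The cause was not tested.

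The median of the fate factor list, which lies near 0, turned negative without a filter (-0.00323), with a filter of 5 FPKM (-0.0906), with quantile normalization (-0.209) and without IL-2 replicate 3 (-0.00168, the lowest of the values with a library left out, which reached 0.0636), and that of the integrins with quantile normalization (-0.0553). Without a filter the medians of the NK cell and CD4 T cell markers were -0.0179 and -0.178, over more members.

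For same-numbered libraries the correlations of their deviations from the population means were -0.056, 0.069 and -0.027. Those of unlike-numbered libraries ran from -0.171 to 0.195. With 3 technical libraries a side, these values cannot show whether the numbers pair the libraries. A fit with the replicate number as a block gave 1982 higher and 1538 lower genes and changed no call among the named genes. Precision is limited by the number of libraries, their technical nature and the unknown depth.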
